A study of Nasonia vitripennis x Nasonia giraulti with 2 samples.

Results

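SCAFFOLD1 is the scaffold of the Nasonia genome assembly (v1.0) with the most CpGs in these data. The CpGs described here are all those listed for this scaffold in both WGBS-seq (whole-genome bisulfite sequencing) files, 312066 of 5531492 CpGs in all (5.64%), at positions 43 to 9425191. They were followed along the scaffold in 95 fixed windows of 100000 bp counted from position 1. The choice used the scaffold name and not the methylation level.

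The 2 libraries came from reciprocal F1 hybrid females of the parasitoid wasps Nasonia vitripennis (Nv, strain AsymCX) and Nasonia giraulti (Ng, strain R16A). In F1VG the mother was Nv and the father Ng, and in F1GV the reverse. Each library was 1 pool of 50 whole adults taken 24 h after eclosion, so cell types are mixed, and both carry the same pair of genomes. With 1 library per cross there was no replicate error, and the cross cannot be told apart from the library.

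In bisulfite sequencing a methylated cytosine is read as C and an unmethylated cytosine as T, so the share of C reads is the methylation level of a CpG. In insects, methylation is sparse and lies mainly in the transcribed part of genes, unlike in vertebrates, where most CpGs of the genome are methylated. In mammals the methyltransferase Dnmt1 copies the mark to the new DNA strand after replication, and Dnmt3 can place it on unmethylated DNA. In insects these roles are inferred from other organisms, as the study points out. Methylated cytosine mutates readily to thymine by deamination, and DNA that is methylated in the germ line is often poor in CpG. Wasp females develop from fertilized eggs and carry a maternal and a paternal copy of each chromosome. Their reads could be assigned to the Nv copy (V allele) or the Ng copy (G allele) where they held a fixed difference between the species. Va and Ga are the methylation levels of the V and G alleles in percent, and their difference, Va minus Ga, is in percentage points.

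The CpGs of SCAFFOLD1 had 15820701 counts over all reads in F1VG and 18886404 in F1GV. The median depth was 48 and 59 reads per CpG, against 48 and 58 on the other scaffolds. V reads made up 50.9% of the allelic reads in F1VG and 50.6% in F1GV. A file lists a CpG only where it has at least 8 V and 8 G reads, so the number of listed CpGs is not the number in the genome. Intervals below are 95% Wilson intervals. They cover counting error only, and they treat neighbouring CpGs, which share reads, as independent.

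Most CpGs of SCAFFOLD1 carried almost no methylated reads, and a small set was strongly methylated. Here a CpG is called methylated where its level over all reads of both libraries was at least 20%. That held for 3581 CpGs, 1.15% of those listed (1.11 to 1.19%), against 50162 CpGs or 0.961% (0.953 to 0.969%) on all other scaffolds together. The levels were spread unevenly: 307582 CpGs lay below 10%, 903 between 10 and 20%, 377 just above the limit between 20 and 30%, and 721 at 90% or more. The sparsest class above 10% was 30 to 40%, with 263 CpGs. At 1419 methylated CpGs (39.6%) the level was 80% or more, against 39.0% elsewhere, and the median level of methylated CpGs was 72.8%, against 72.2% elsewhere. Levels of single methylated CpGs in the libraries followed each other with r = 0.843 over 3581 CpGs, which share reads with their neighbours.

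In methylation and in density of listed CpGs, SCAFFOLD1 was not at the edge of the range of scaffolds. Of 89 scaffolds with at least 10000 CpGs it ranked 1 by number of CpGs and 21 by the percentage methylated. On the other 88 that percentage ran from 0 to 3.04%, with a median of 0.746% and quartiles of 0.456 and 1.08%. It ranked 36 by listed CpGs per 1000 bp, with 33.1 against 16.7 to 41.3 on the others. No test was made between scaffolds, because CpGs of a scaffold are not replicates.

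Along the scaffold, methylated CpGs stood in islands separated by long stretches without any. Of the 95 windows, 29 (30.5%) held no methylated CpG, 17 held 1 to 19, 49 held at least 20 and 7 held at least 100. The median was 25 and the highest 224. The 49 windows with at least 20 held 3357 of the 3581 methylated CpGs (93.7%), and the 17 fullest windows (17.9%) were enough to hold 50% of them. On the other scaffolds whose listed positions reached at least 1 Mb, 403 of 1190 windows (33.9%) held none, the median was 18.5 and the highest 201. Over all 2576 windows of the other scaffolds, short ones included, 1428 (55.4%) held none and the median was 0. The middle of SCAFFOLD1 was the poorest in methylation. From position 1 to 3141730, 1326 of 93522 CpGs (1.42%) were methylated, from there to 6283460 807 of 113090 (0.714%), and from there to the end 1448 of 105454 (1.37%).

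**Figure D1:**
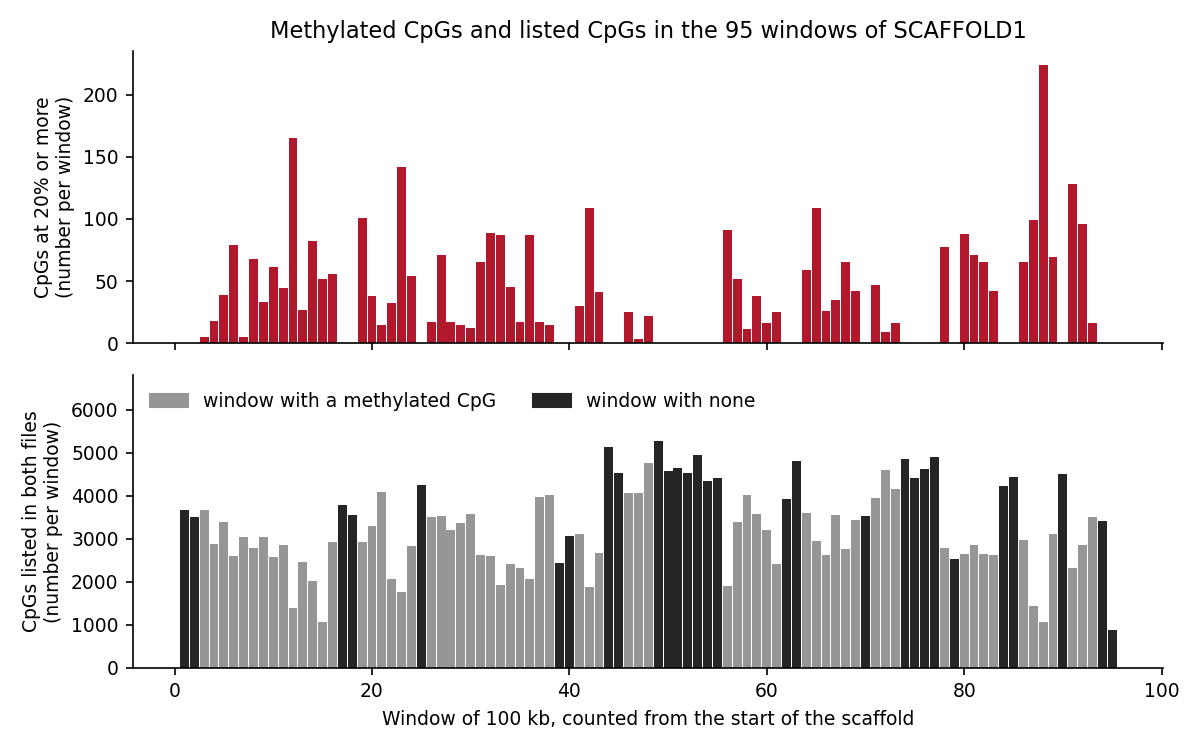
Number of methylated CpGs (level of at least 20% over both libraries, upper plot) and number of CpGs listed in both files (lower plot) in each of the 95 windows of SCAFFOLD1, by window number. The tallest methylation bar holds 224 CpGs in a window with 1060 listed CpGs, and the 29 windows with no methylated CpG (black) have a median of 4411 listed CpGs.

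The window with the most methylated CpGs, from 8700001 to 8800000, held 224 among 1060 listed CpGs (21.1%). Its mean levels were 75.8% for V and 64.7% for G in F1VG, and 74.7% and 63.0% in F1GV. The next, from 1100001 to 1200000, held 165 among 1401 (11.8%), with 74.8% for V and 63.1% for G in F1VG and 76.1% and 64.0% in F1GV. The window from 2200001 to 2300000 held 142 among 1753 (8.10%), with 68.4% and 58.0% in F1VG and 68.9% and 56.6% in F1GV. In all 3 windows the V allele had the higher mean in both crosses, by 10.4 to 12.3 percentage points.

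The windows without a methylated CpG were mostly neighbours of each other. They formed 13 runs, and 25 of the 29 windows lay in runs of at least 2. The longest run, from 4800001 to 5500000, was 7 windows long and listed 32738 CpGs, the highest of which had a level of 16.7%. It was bordered by methylated CpGs at 4779492 and 5522710, the largest distance between neighbouring methylated CpGs on the scaffold (743218 bp). The run from 7300001 to 7700000 had 4 windows and 18784 CpGs, none above 14.6%. Among the runs of 2 windows, the one from 4300001 to 4500000 listed the most CpGs, 9672, none above 11.1%. Altogether the 29 windows held 117755 CpGs, 37.7% of those listed. Of these, 113 lay between 10 and 20%, and when the limit was set to 10% only 1 window remained without a methylated CpG.

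Windows without methylation were not shallower. Their median depth was 48 reads in F1VG and 58 in F1GV, and that of the windows with at least 20 methylated CpGs was 48 and 59. In both kinds nearly the whole window was covered: a median of 98 and 97 of its stretches of 1000 bp held a listed CpG. At CpGs below 20%, methylated reads made up a median of 1.64% in the empty windows (1.57 to 1.70%) and 1.76% in the windows with at least 20 (1.65 to 2.49%).

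Windows rich in methylated CpGs had few listed CpGs. The median number of listed CpGs was 4411 in the windows with no methylated CpG (884 to 5266), 2775 in those with at least 20 (1055 to 4755) and 1882 in those with at least 100 (1060 to 2949). In the 9 windows with fewer than 2000 listed CpGs, 969 of 13304 CpGs (7.28%) were methylated. That share was 2.25% in the 31 windows with 2000 to 3000 (1823 of 81039), 0.669% in the 29 windows with 3000 to 4000 (673 of 100532) and 0.0990% in the 26 windows with more (116 of 117191), 18 of which held none. Spearman's rho between listed and methylated CpGs was -0.706 over the 95 windows, and -0.622 over the 1190 windows of other scaffolds of at least 1 Mb. Both are descriptions over windows that share 2 libraries. Counted per stretch of 1000 bp with a listed CpG, the density was a median of 45.4 CpGs in the empty windows, 28.6 in those with at least 20 methylated CpGs and 21.1 in those with at least 100. The part that the distance between fixed differences of the species, and so the listing of CpGs, had in this was not tested.

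The same order held for single CpGs. Of 1213 CpGs with no other listed CpG within 100 bp, 364 (30.01%, 27.5 to 32.6%) were methylated. With 1 to 2 neighbours the share was 18.7% (1442 of 7709), with 3 to 5 it was 4.78% (1338 of 28016), with 6 to 10 it was 0.419% (412 of 98230) and with 11 to 20 it was 0.0153% (25 of 163086). Of 13812 CpGs with 21 to 33 neighbours none was methylated, a count of 0 that allows a share of up to 0.0217%. The median number of neighbours was 2 at methylated and 11 at other CpGs of SCAFFOLD1, and 2 and 11 on the other scaffolds too.

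**Figure D2:**
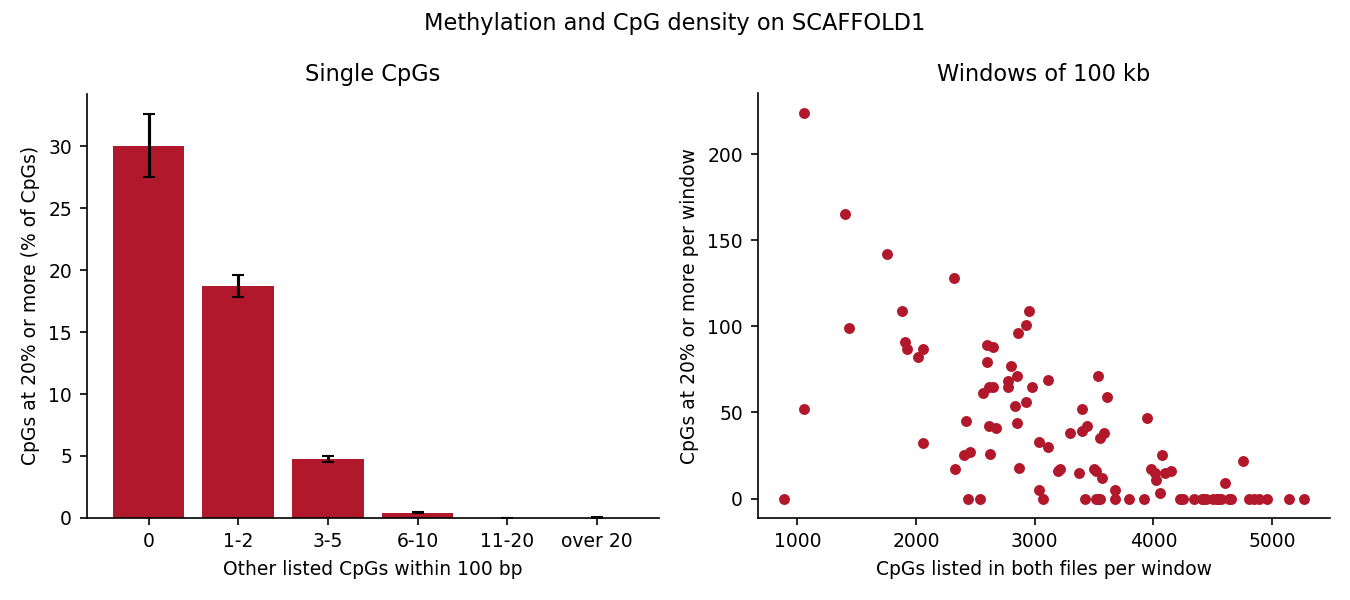
Percentage of methylated CpGs on SCAFFOLD1 by the number of other listed CpGs within 100 bp (left, bars with 95% Wilson intervals), and number of methylated CpGs against number of listed CpGs in each window of 100000 bp (right, 1 point per window). The share falls from 30.01% at CpGs without a neighbour to 0.0153% at those with 11 to 20, and the windows with most methylated CpGs lie at the left.

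Within the islands, methylation came in short dense stretches. Counting as a stretch at least 4 methylated CpGs with no more than 1000 bp between neighbours, 313 stretches held 3412 of the 3581 methylated CpGs (95.3%). They covered 386425 bp, 4.10% of the scaffold. Their median length was 1128 bp (up to 5280), their median number of methylated CpGs was 10 (up to 34), and a median of 91.7% of the CpGs listed inside them was methylated. The stretch from 2643346 to 2645491 was methylated at all 34 of its CpGs, with means of 76.1% for V and 77.4% for G in F1VG and 78.8% and 74.3% in F1GV. Another with 34 methylated CpGs, from 9147465 to 9150903, had 72 listed CpGs and differed between the alleles, at 71.4% for V and 48.3% for G in F1VG and 78.1% and 52.4% in F1GV. Both were named after their values were seen. The median distance between neighbouring methylated CpGs was 60.5 bp, and 2151 of 3580 distances (60.1%) were no longer than 100 bp.

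The V allele was slightly more methylated than the G allele on SCAFFOLD1 in both crosses, much as elsewhere in the genome. Over the methylated CpGs, F1VG had a mean of 70.0% for V and 65.4% for G, and Va minus Ga was 4.61 ± 28.96 percentage points (SD across CpGs). F1GV had 71.2% for V and 64.0% for G, and Va minus Ga was 7.16 ± 28.0. Over CpGs with a level of at least 50% in place of 20%, the means were 1.46 and 2.48. On the other scaffolds, at 20%, they were 4.68 and 6.99. Among those of the 89 scaffolds that had a methylated CpG, SCAFFOLD1 ranked 39 and 35. V was therefore the higher allele both when it came from the mother and when it came from the father. Median differences were smaller, 1.43 in F1VG and 3.03 in F1GV. V exceeded G at 1851 methylated CpGs (51.7%) in F1VG and at 2014 (56.2%) in F1GV, and G exceeded V at 1494 and 1452. Va minus Ga reached 50 or more at 272 CpGs of F1VG and 313 of F1GV, and -50 or less at 116 and 79.

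Most methylated CpGs had methylation on both alleles. Of the 3581, V lay below 10% at 161 and from 10 to 20% at 122 in F1VG, and G at 380 and 109. In F1GV these counts were 114 and 77 for V, and 297 and 172 for G. The level of each allele was then averaged over the 2 libraries. By these means both alleles were at 80% or more at 1196 CpGs (33.4%, against 32.5% elsewhere), and neither was at 1646 (46.0%, against 45.1%). The mean of the V allele was at 80% or more and that of the G allele below 20% at 68 CpGs (1.90%, against 2.80% elsewhere). The reverse held at 13 (0.363%, against 1.06%). The sign of Va minus Ga was shared by the libraries at 2004 methylated CpGs (56.0%, against 58.2%). The rest includes CpGs with a difference of 0 in either library, so it is not the share of opposite signs. Its correlation between the libraries across methylated CpGs was r = 0.479, against 0.610 on the other scaffolds. CpGs are not replicates, so these are descriptions.

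By window, the allelic difference changed along the scaffold in size and in places in sign. In the 49 windows with at least 20 methylated CpGs, mean Va ran from 52.6 to 83.6% and mean Ga from 46.1 to 78.4% in F1VG, and from 56.3 to 80.2% and 43.7 to 77.0% in F1GV. Mean Va minus Ga ran from -13.6 to 20.7 percentage points in F1VG (median 4.11) and from -14.2 to 26.1 in F1GV (median 6.26). It was positive in both crosses in 38 windows, negative in both in 4 and of opposite sign in 7. Across the 49 windows the values of the crosses followed each other with r = 0.685 and rho = 0.707. They changed by a median of 2.62 percentage points and by more than 10 in 3 windows. Within a window, the SD of Va minus Ga across CpGs had a median of 27.2 in F1VG and 24.8 in F1GV. Mean Va minus Ga of a window went with the V share of its allelic reads at rho = 0.342 in F1VG and 0.281 in F1GV. The study puts its unequal V and G read numbers down to mapping bias toward the reference, and states that this was corrected. Whether mapping had a part in the differences here was not tested.

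**Figure D3:**
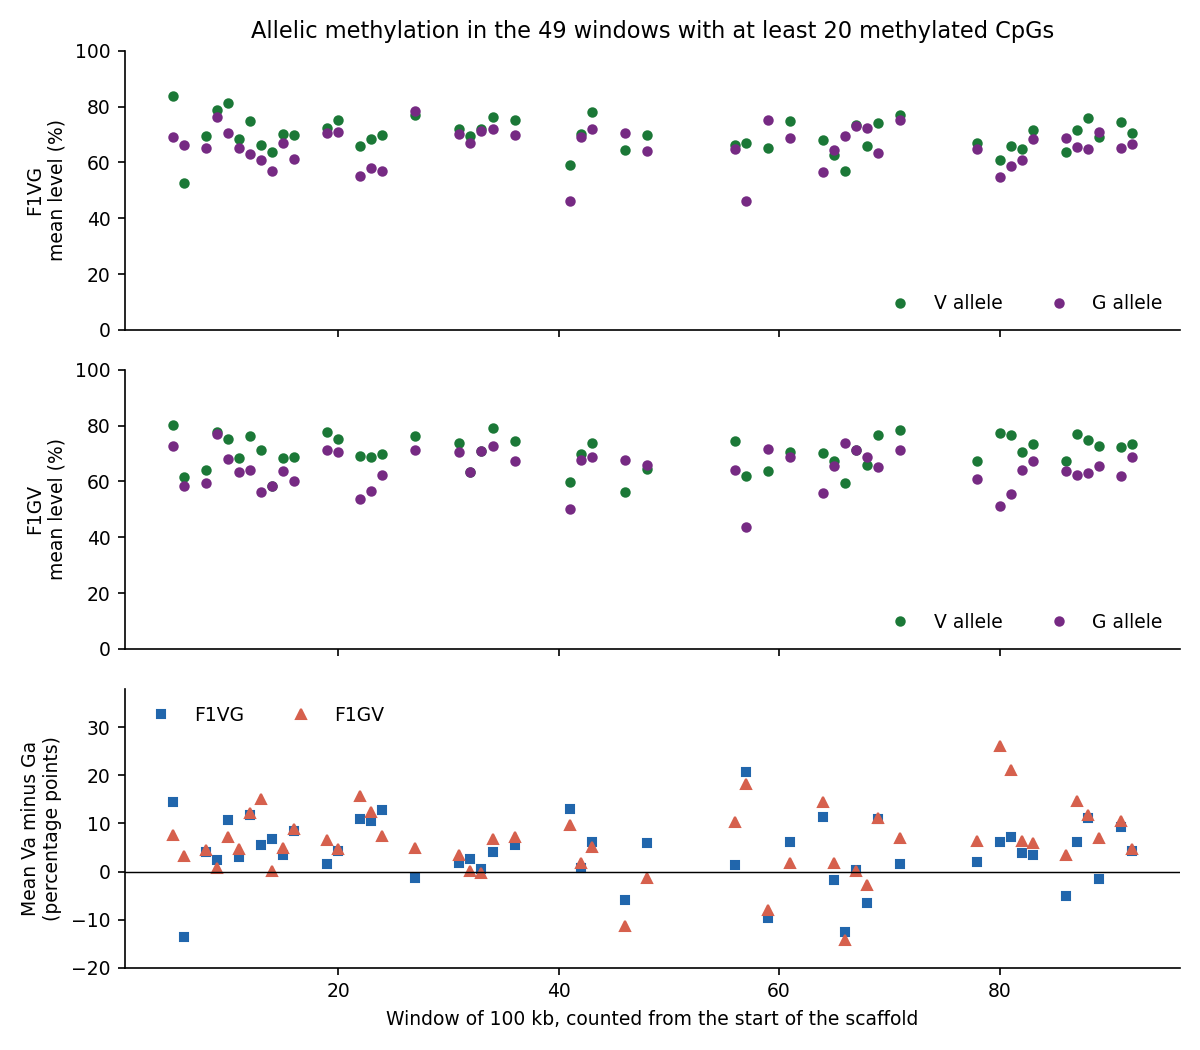
Mean methylation level of the V and G alleles in F1VG (top) and F1GV (middle), and mean Va minus Ga in percentage points in both libraries (bottom), in the 49 windows of SCAFFOLD1 with at least 20 methylated CpGs, by window number. Most points of the lowest plot lie above 0, with lows of -13.6 in F1VG and -14.2 in F1GV.

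Among these 49 windows, the one with the most positive mean over both libraries, from 5600001 to 5700000, held 52 methylated CpGs. V stood at 66.9% and G at 46.2% in F1VG, a difference of 20.7 ± 38.5 percentage points, and at 61.9% and 43.7% in F1GV, a difference of 18.2 ± 29.2. The next 2 windows were neighbours, and in both the V level was higher in F1GV than in F1VG while the G level was not. From 7900001 to 8000000 (88 methylated CpGs) V was at 61.0% in F1VG and 77.4% in F1GV, and G at 54.9% and 51.3%, so that Va minus Ga was 6.11 ± 31.2 and 26.1 ± 39.1. From 8000001 to 8100000 (71 methylated CpGs) V was at 66.1% and 76.7% and G at 58.8% and 55.6%, and Va minus Ga was 7.27 ± 40.6 and 21.1 ± 37.2.

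The 3 of the 49 windows with the most negative means had more methylation on G in both crosses. From 6500001 to 6600000 (26 methylated CpGs) G was at 69.3% and V at 56.8% in F1VG, and at 73.7% and 59.5% in F1GV, with Va minus Ga of -12.6 ± 36.6 and -14.2 ± 33.1. From 5800001 to 5900000 (38) it was -9.71 ± 28.6 and -7.96 ± 33.1, and from 4500001 to 4600000 (25) it was -6.01 ± 23.4 and -11.4 ± 19.6. The window with the lowest value of F1VG, from 500001 to 600000 (79, named after its values were seen), did not repeat it: the difference was -13.6 ± 31.4 in F1VG and 3.34 ± 24.2 in F1GV.

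**Figure D4:**
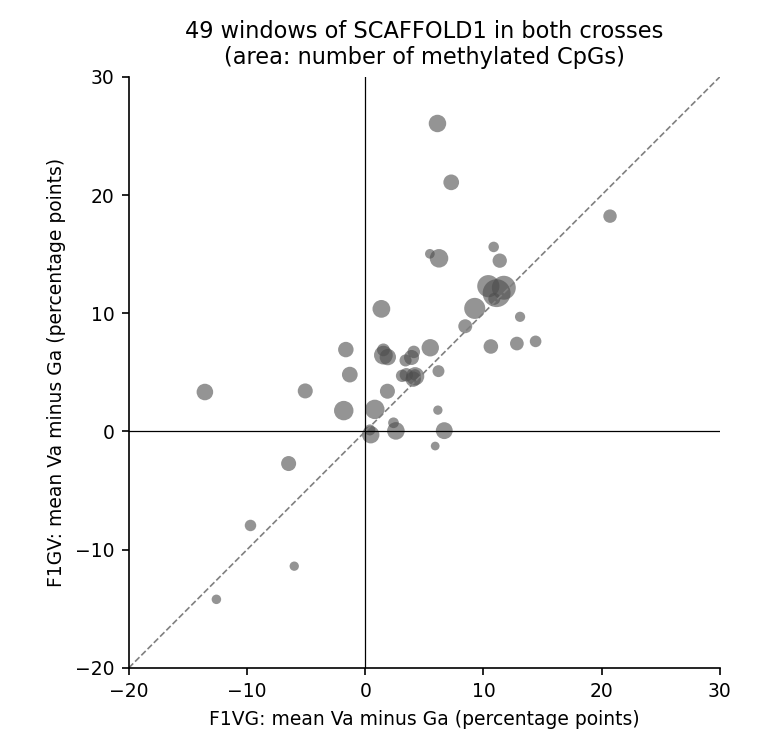
Mean Va minus Ga in F1GV against F1VG, in percentage points, for the 49 windows with at least 20 methylated CpGs (point area: number of methylated CpGs, dashed line: equal values). In 42 windows the sign is the same in both libraries, and the points at 6.11 and 26.1 and at 7.27 and 21.1 are neighbouring windows.

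Allelic differences were shared only over short distances. Across pairs of methylated CpGs at most 100 bp apart, Va minus Ga was correlated with r = 0.476 in F1VG and 0.601 in F1GV (4030 pairs). From there to 300 bp r was 0.278 and 0.361 (4870 pairs), and on to 1000 bp 0.0815 and 0.172 (8490 pairs). Between 1000 and 5000 bp it was 0.0036 and 0.0197 (19489 pairs). Pairs within 100 bp can lie on the same reads, and all pairs share 2 libraries. By stretch, the sign of Va minus Ga was shared by the crosses in 219 of 313, and the difference was under 10 percentage points in both in 149. In 2 stretches V was higher by at least 50 in both crosses, and in none was G. The longer of the 2, from 8758624 to 8759632, had V at 80.4% and G at 8.23% in F1VG and V at 89.8% and G at 11.3% in F1GV.

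Single CpGs were then tested for allele-specific methylation (ASM) by setting V against G reads in Fisher's exact test, library by library. The test covered the 72225 CpGs of all scaffolds that had 8 or more V reads and 8 or more G reads in each library and a level of at least 10% over these reads. P-values were adjusted over all of them by the Benjamini-Hochberg method, with a threshold of 0.05. Of these CpGs 4743 were on SCAFFOLD1, with a median of 19 V and 19 G reads in F1VG and 24 of each in F1GV. These tests compare the alleles within a pool.

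ASM was called at 613 CpGs of SCAFFOLD1 in F1VG (12.9%, 12.0 to 13.9%), against 15.4% of all CpGs tested. In F1GV it was called at 726 (15.3%, 14.3 to 16.4%), against 18.1%. V was the higher allele at 423 in F1VG (8.92% of those tested, against 10.04%) and at 564 in F1GV (11.9%, against 13.1%). V thus had 69.0% of the calls in F1VG and 77.7% in F1GV, against 64.8 and 72.2% on the other scaffolds. Both libraries gave a call at 260 CpGs (5.48%, against 8.34%). At 252 of these the same allele was higher (5.31%, against 8.09%), and at 8 the opposite allele (0.169%, against 0.246%). Among the CpGs called in F1VG, 76.5% had the same sign in F1GV, and 74.8% the other way round, against 82.6 and 81.6% elsewhere. The share called in both libraries was below the background, with an upper interval bound of 6.17%. Neighbouring CpGs share reads, and the difference between scaffolds was not tested. CpGs with ASM in both libraries lay in 49 of the 95 windows, and CpGs called in a single library in more, 67 windows for F1VG and 61 for F1GV.

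Some of these CpGs lay together in 14 ASM regions on SCAFFOLD1, of 391 in the genome (3.58%, with 6.57% of the CpGs tested). A region is a run of 4 or more CpGs called in each library, with gaps of no more than 1000 bp. In all 14 the V allele was the methylated one, whichever parent it came from, while on the other scaffolds it was in 272 of 377. No G methylated region met this definition on SCAFFOLD1. The stretch from 5827393 to 5827874 (11 methylated CpGs, named after its values were seen) did have more methylation on G. V was at 40.6% and G at 76.7% in F1VG, and V at 23.9% and G at 75.2% in F1GV. Its window held only 3 CpGs called in both libraries. The 14 regions held 88 of the 260 CpGs called in both libraries (33.8%, against 2737 of 6024 or 45.4% over all scaffolds). They had a median length of 474.5 bp (42 to 1663) and a median of 5.5 ASM-CpGs, and lay in 12 windows. Over these ASM-CpGs, mean G levels ran from 0 to 9.85% in F1VG and from 0.981 to 22.3% in F1GV. The ASM-CpGs were chosen by their calls, and other tested CpGs in the span of a region are left out. In the region from 9060690 to 9062352 they were 4 of 12 tested, and in that from 8759130 to 8759632 they were 16 of 16. Over all methylated CpGs of the stretch from 9060690 to 9063299, G was at 42.7% in F1VG and 37.6% in F1GV.

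The region with the most ASM-CpGs, 16, ran from 8759130 to 8759632, in the fullest window. V was at 79.2 ± 10.5% and G at 3.12 ± 5.36% in F1VG (SD across CpGs), and V at 89.9 ± 9.12% and G at 7.40 ± 9.08% in F1GV. The median depth of its CpGs was 20.5 V and 19 G reads in F1VG and 23 V and 28 G reads in F1GV. The region from 8695893 to 8696851, with 8 ASM-CpGs, had V at 81.4 ± 18.5% and G at 0% in F1VG, and V at 86.0 ± 16.4% and G at 5.06 ± 5.11% in F1GV. The region from 5629618 to 5629937, also with 8, lies in the window from 5600001 to 5700000 described above. There V was at 83.3 ± 8.25% in F1VG and 52.3 ± 17.1% in F1GV, and G at 1.85 ± 3.44% and 0.981 ± 1.82%. At the ASM-CpGs of all 3 the G allele was nearly unmethylated in both crosses. These were 16 of 16, 8 of 9 and 8 of 11 of the tested CpGs in the spans. In the last the V allele was lower in F1GV, where it came from the father, but parent and library cannot be told apart.

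The crosses were compared CpG by CpG with an interaction term in a binomial model (likelihood ratio test), which asks whether the difference between the alleles itself differs between the libraries. It passed at 229 CpGs of SCAFFOLD1 (4.83%, 4.25 to 5.48%), against 4.73% of all CpGs tested. At 109 (2.30%, against 2.09%) the change was toward the maternal allele. Calls lay in 68 windows. Total methylation was compared with Fisher's exact test over all reads. It covered 67810 CpGs with a pooled level of at least 10% and a depth above 10 in each file, 4484 of them on SCAFFOLD1. It differed at 478 (10.7%, 9.79 to 11.6%), against 10.01%, with higher levels in F1VG at 196 (4.37%, against 4.61%). These shares were near the background. The test compares 2 libraries, not the crosses.

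The CpG with the smallest interaction p on the scaffold, at 8752451, had methylated V reads in 15 of 15 in F1VG and 3 of 18 in F1GV, and methylated G reads in 3 of 16 and 20 of 23. The maternal allele was thus the methylated one in both libraries (likelihood ratio test, p = 2.9e-12, adjusted p = 8.0e-09, and Zelen's exact test for equality of the odds ratios, added after these values were seen, p = 1.1e-10). None of the 3 other tested CpGs within 1000 bp was called. At 8275241 the paternal allele was the more methylated one: V had 1 of 13 in F1VG and 26 of 28 in F1GV, and G had 7 of 12 and 0 of 24 (p = 4.9e-12, adjusted p = 1.1e-08, exact p = 2.1e-10). The 1 other tested CpG within 1000 bp was not called. At 2223620 V had 33 of 35 reads methylated in F1VG but 6 of 39 in F1GV, while G was at 34 of 57 and 34 of 45 (p = 1.6e-11, adjusted p = 3.0e-08, exact p = 1.4e-10), and 3 of its 16 tested neighbours were called.

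The smallest p-values for total methylation belonged to CpGs whose V allele differed between the libraries. At 5564744 0 of 74 reads were methylated in F1VG, against 41 of 69 in F1GV. By allele, V had 0 of 32 and 41 of 43, and G had 0 of 20 and 0 of 15 (Fisher's exact test of all reads, p = 1.4e-17, adjusted p = 2.7e-13). At 7964517 there were 0 of 76 and 35 of 70, with 0 of 27 and 18 of 22 on V and 0 of 33 and 8 of 30 on G (Fisher's exact test, p = 1.7e-14, adjusted p = 3.9e-11). At 2223471 the direction was the other way, with 30 of 60 in F1VG and 0 of 75 in F1GV, from 28 of 35 and 0 of 41 on V and 2 of 23 and 0 of 34 on G (Fisher's exact test, p = 1.3e-13, adjusted p = 2.0e-10). Of the tested CpGs within 1000 bp, 15 of 23, 6 of 6 and 7 of 16 also passed.

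Some of the CpGs with different total levels lay in runs. Under a definition made after the values were seen (at least 4 neighbouring called CpGs of the same direction, at most 1000 bp apart), SCAFFOLD1 had 19 of the 243 runs in the genome. They held 124 of the 478 called CpGs (25.9%, against 18.01% on the other scaffolds). Levels were higher in F1GV in 14 runs (73.7%) and in F1VG in 5, while on the other scaffolds they were higher in F1GV in 151 of 224 (67.4%). Levels of a run are means over its called CpGs alone, and the other tested CpGs in its span are left out. By these means V changed more than G in 17 runs (89.5%), and in 192 of 224 (85.7%) elsewhere. In 9 runs an allele changed by at least 50 percentage points on average while the other changed by less than 20, and 18 runs were longer than 100 bp. In the longest by number of CpGs, 16 from 5564203 to 5564991, V was at 4.01 ± 5.04% in F1VG and 68.9 ± 19.2% in F1GV, and G at 3.04 ± 5.55% and 1.69 ± 2.70%. In the next, 13 called of 33 tested CpGs from 8033946 to 8035480, V was at 8.87 ± 9.92% and 70.3 ± 23.9%, and G at 19.8 ± 36.7% and 26.7 ± 36.7%. Over all 27 methylated CpGs of the stretch from 8033933 to 8035922, V was at 52.3% in F1VG and 86.1% in F1GV. In the 8 CpGs from 2223466 to 2223639, V was at 81.0 ± 21.2% in F1VG and 6.25 ± 7.43% in F1GV, and G at 28.2 ± 34.0% and 23.4 ± 35.2%. The windows from 7900001 to 8100000, which are 2 of the 3 where mean Va minus Ga changed by more than 10 percentage points between the crosses, held 5 of the 19 runs, those from 7962835 to 7962850, 7964311 to 7964527, 7987448 to 7988592, 7989888 to 7991013 and 8033946 to 8035480. Over the called CpGs of each of these runs V was higher in F1GV, at 70.3 to 86.2%, than in F1VG, at 1.47 to 22.9%. Each library is 1 pool, and whether the adults of a pool differed among themselves was not tested.

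**Figure D5:**
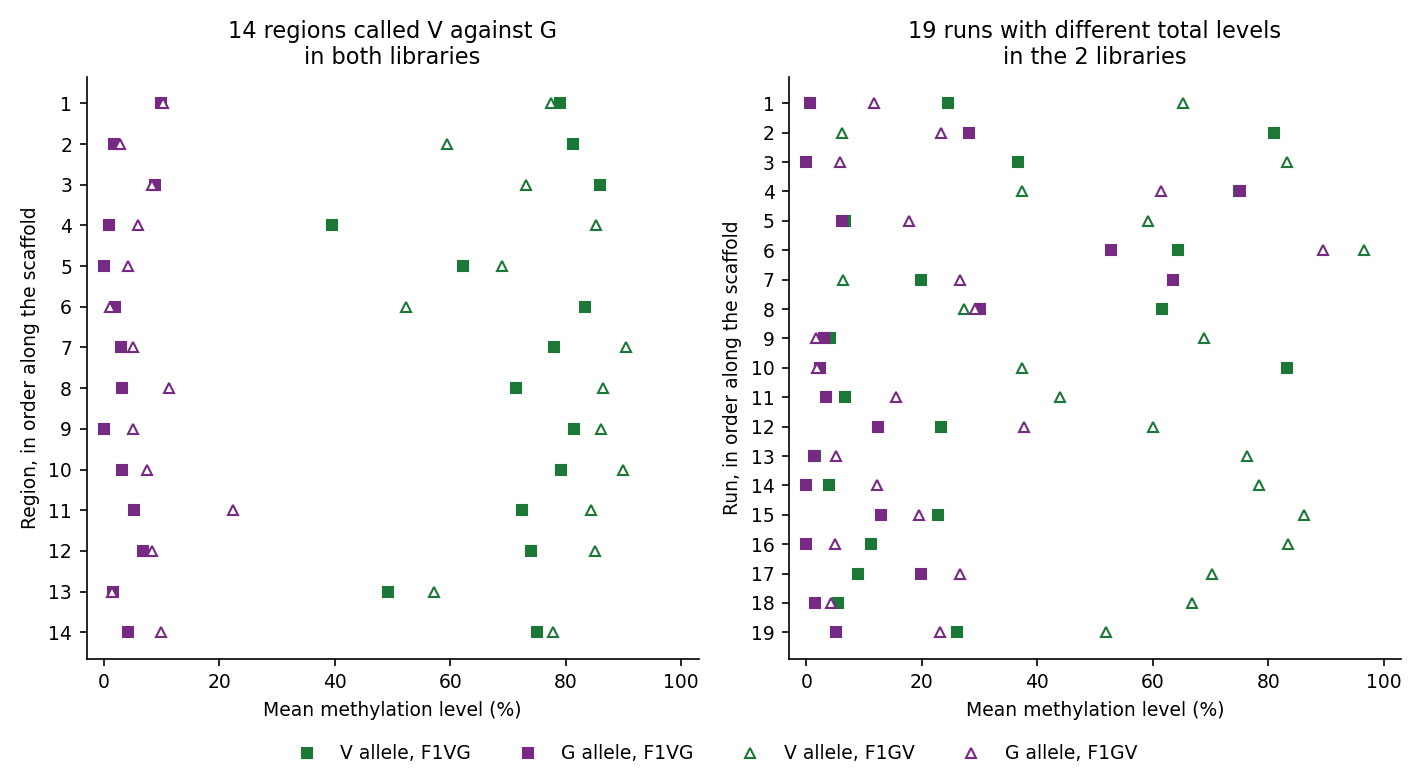
Mean methylation level in percent of the V and G alleles in F1VG (squares) and F1GV (triangles) for the 14 ASM regions (left) and the 19 runs of CpGs with different total levels (right) of SCAFFOLD1, in order along the scaffold. Means are over the called CpGs of a region or run. On the left G lies at 0 to 22.3% in both libraries and V lies above it in each region, and on the right V moves more than G in 17 of 19 runs.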

How the data were processed

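WGBS-seq was made from 1 pool of 50 adult females of each cross (F1VG and F1GV). Per the submitters' processing notes and the study's methods, the authors used CASAVA 1.8.2, FastQC, Trimmomatic and BWA, aligned single-end reads to the bisulfite-converted genomes of both species (v1.0), dropped reads that mapped to several places, and gave a read to V or G by the fixed differences in it. The deposited values are raw read counts, methylated and unmethylated, for each CpG over all, V and G reads, with no normalization. PCR copies could not be told apart in these counts.

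The files were joined by scaffold and position. Levels, window means and tests came from Numba 0.67.0, SciPy 1.17.1, NumPy 2.4.6 and pandas 2.3.3 under Python 3.11.15, and plots from Matplotlib 3.10.9. The tests were fitted over all scaffolds and tested on simulated data. A window needed at least 100 listed CpGs.

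Named were the 3 windows with the most methylated CpGs, the 3 with the most positive and the 3 with the most negative mean Va minus Ga, the 3 longest runs of empty windows, the 3 largest V and the 3 largest G methylated ASM regions by number of ASM-CpGs (none was G methylated), and for each test between libraries the 3 CpGs of smallest p. The CpGs, windows and lists were chosen with earlier results of these data known. Alternatives changed the level, depth, window start, averaging, threshold, interaction test and region limits. Gene models and sequence of build v1.0 were not used here, so no gene is named.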

Additional observations from a re-analysis of the deposited data

Results flagged for a closer look

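Of the 229 CpGs of SCAFFOLD1 at which the difference between the alleles differed between the libraries by the interaction test, the 3 with the smallest p and 3 runs are given here. The 3 CpGs on SCAFFOLD1 are those at 8752451 (likelihood ratio test, p = 2.9e-12, Zelen's exact test, p = 1.1e-10), 8275241 (p = 4.9e-12, exact p = 2.1e-10) and 2223620 (p = 1.6e-11, exact p = 1.4e-10), whose reads are given in the report. The runs are those with at least 4 neighbouring interaction CpGs. In the run of 4 CpGs from 2223466 to 2223639 V fell from 91.4 ± 4.28% in F1VG to 7.63 ± 5.42% in F1GV, while G was at 20.05 ± 26.5% and 24.96 ± 33.9%, so that the change was toward the maternal allele. In the run of 6 from 510958 to 511985 V was at 30.7 ± 22.1% and 62.8 ± 10.7%, and G at 89.8 ± 6.21% and 59.3 ± 20.3%, toward the paternal allele. In the run of 4 from 8800337 to 8800534 V was at 43.0 ± 20.9% and 72.7 ± 14.3%, and G at 76.1 ± 23.6% and 51.0 ± 21.3%, also toward the paternal allele. Levels of a run are means over its interaction CpGs alone, with SDs across CpGs, and other tested CpGs in its span are left out. The last run overlaps in position with the ASM region from 8800395 to 8800653, which has 5 ASM-CpGs, none of them an interaction CpG. Over those ASM-CpGs V was at 72.3% in F1VG and 84.4% in F1GV, and G at 5.17% and 22.3%.

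CpGs of SCAFFOLD1 listed in a single file entered no comparison, and some were methylated. Of 14514 listed for F1VG alone, 150 (1.03%) were at 20% or more, against 1.17% of the CpGs in both files by their F1VG level. Of 53918 listed for F1GV alone, 859 (1.59%) were, against 1.17% by the F1GV level. Their median depth was 34 and 40 reads. Altogether 4 of the former and 3 of the latter fell in windows that otherwise held no methylated CpG.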

How the results depend on the processing

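Of 49 alternative values, 35 stayed within the limits set for their kind of result, a fold change for counts and a margin for means, shares and rho. A change of direction was possible only for mean Va minus Ga and for rho, and none was seen there. Counts and shares have no direction. With a level of 10% in place of 20%, 1 window held no methylated CpG in place of 29. With 50%, the mean of Va minus Ga fell to 1.46 (F1VG) and 2.48 (F1GV). Without the level filter, 247 CpGs had ASM in F1VG and 370 in F1GV, 25 had an interaction and 129 a different total level. More CpGs are then adjusted for. At an adjusted p under 0.01 these were 392 in F1VG, 72 with an interaction and 276 with a different total level. With 16 reads per allele 425 had ASM in F1GV. With a filter of 20% on the level 279 differed in total level, and a z test in percentage points gave 369 interactions. Asking for at least 6 CpGs left 7 ASM regions. Some alternatives were chosen after seeing the data. For rho they were a level of 50%, shifted windows, leaving out the first and last window, and density per covered stretch of 1000 bp. These gave -0.706 to -0.797, the last being -0.797. Mean Va minus Ga without the fullest window was 4.18 and 6.86. It was 4.52 and 6.39 without the 2 neighbouring windows that, among those above 0 in F1VG, changed most toward V in F1GV. No paired analysis was possible because each cross has 1 library, and for the same reason no replicate could be left out. With about 20 reads per allele, small differences at single CpGs were not detectable.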

Other observations

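The ASM region from 8033933 to 8034423 had V at 78.0% and 90.4% and G at 3.02% and 5.02% in F1VG and F1GV, over its 7 ASM-CpGs. It overlaps in position with the run from 8033946 to 8035480. Over the called CpGs of that run V was at 8.87% in F1VG and 70.3% in F1GV. Both lie in a stretch of 27 methylated CpGs, from 8033933 to 8035922. CpGs with high V methylation in both crosses and CpGs with high V methylation in F1GV thus stand within the same 1990 bp.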
